A study of Caenorhabditis elegans with 4 samples.

Results

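The miRNAs described here are those with late registry numbers, 1000 and above, in small RNA libraries of Caenorhabditis elegans. They were taken as every mature miRNA name whose number is at least 1000, leaving out miR-1829a, miR-1829b, miR-1829c and miR-8203. This gave 192 of the 434 mature names counted in each library, on 117 annotated hairpins. The numbers fall into runs: 30 names from miR-1018 to miR-1834, 38 from miR-2207 to miR-2221, 68 from miR-4805 to miR-5595 and 54 from miR-8186 up. The 2 arms of miR-2953 lie outside these runs. The other 234 names compared with them, numbered under 1000 or called let-7, lin-4 and lsy-6, are the early-described miRNAs.

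Small RNAs were sequenced from whole adults on day 0 of adulthood, as 1 library per strain and each from a pool of worms. The labels give about 1000 worms per pool, and the study's methods a lower number. WT was N2 Bristol and glp-1(e2144) was strain CF1903, a mutant without a germline at its restrictive temperature, and both were kept at 25 °C. ALG-1/OE was strain CT20, which carries the integrated array zaIs5 and so expresses tagged ALG-1 from its own promoter (alg-1p::GFP::alg-1). Its control, ctrl, was strain PE255, which carries on X the array feIs5 with a luciferase-GFP fusion driven by sur-5p. The series' design text names CT20 as the control, whereas the sample titles, the genotypes and the study's text make it the overexpressing strain. The latter was followed, and the direction of every ALG-1/OE value depends on it. The roller marker rol-6(su1006) is part of both arrays, and both strains were kept at 20 °C. The mutation and the transgenes are in the labels only, because small RNA counts do not measure the glp-1 or alg-1 mRNAs. With 1 library per strain, no difference between strains has a replicate check, and every interval and p-value below covers counting error between the libraries named. Where whole worms with and without a germline are compared, fewer cells of a type and less of a miRNA per cell cannot be told apart in these bulk samples.

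A canonical miRNA is cut from a hairpin first by the Drosha complex in the nucleus and then by Dicer, and 1 arm of the resulting duplex is kept by an Argonaute protein, in worms chiefly ALG-1 and ALG-2. The kept arm is named 5p or 3p by its side of the hairpin. Names in the miRNA registry are given in order of discovery, so high numbers were added after the first cloning surveys, mainly from deep sequencing. Some late entries are mirtrons, short introns that fold as a hairpin when they are spliced out and so bypass Drosha.

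Late-numbered miRNAs were seldom found. At least 1 read was counted for 44 of the 192 names in WT (22.9%), 36 in ctrl (18.8%), 43 in ALG-1/OE (22.4%) and 47 in glp-1(e2144) (24.5%). Of the 234 early names, 181, 174, 183 and 178 had a read in the same libraries. Over the 4 libraries together, 71 late names (37%) and 195 early names (83.3%) were detected at least once. No library held a read of the other 121 late names, 24 were found in 1 library only and 21 rested on a single read in all. Reads were present in every library for 20 late names and 160 early names. With a requirement of 10 reads, 9 late names remained in WT, 10 in ctrl, 16 in ALG-1/OE and 13 in glp-1(e2144). Counted by hairpin, 55 of 117 late hairpins and 112 of 129 early hairpins held a read, so the undetected names included both arms of many hairpins.

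The rate of detection was highest in the earliest run. In any library, 18 of 30 names were found from miR-1018 to miR-1834 (60%), 13 of 38 from miR-2207 to miR-2221 (34.2%), 22 of 68 from miR-4805 to miR-5595 (32.4%) and 17 of 54 from miR-8186 up (31.5%). With at least 10 reads in a library the same runs held 8, 2, 5 and 1 names. The last run was the thinnest. No name from miR-8186 up exceeded 10 reads in any library, and the 54 names collected 80 reads in all. The later 3 runs therefore differed little in whether a name was seen and more in how deeply.

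**Figure D1:**
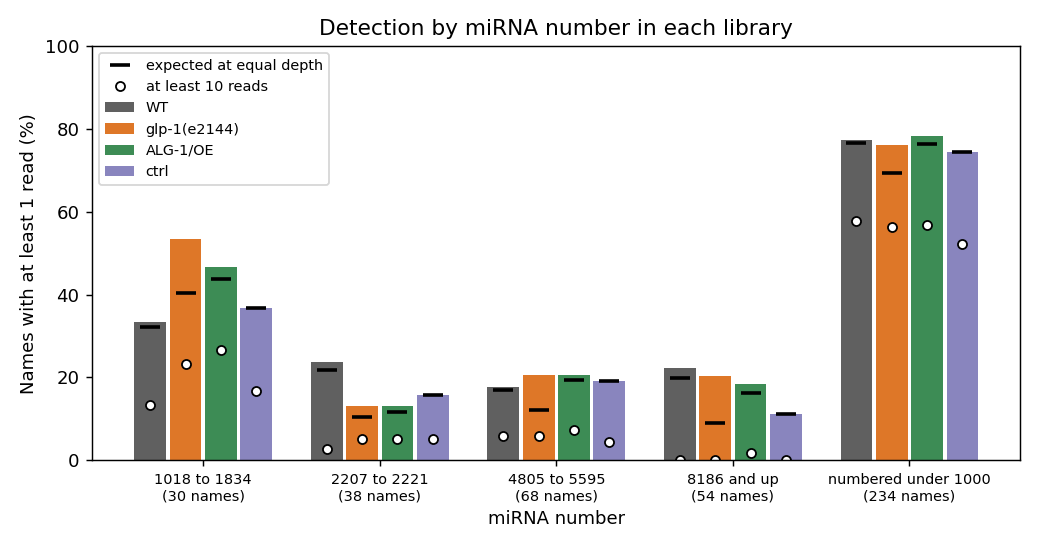
The y axis gives the percentage of miRNA names with at least 1 read and the x axis the number range, with 1 bar per library. Black dashes mark the percentage expected if each library were drawn down to the depth of ctrl, and open circles the percentage with at least 10 reads. The range from miR-1018 to miR-1834 reached 33.3% to 53.3%, the later ranges 11.1% to 23.7%, and the names under 1000 stood at 74.4% to 78.2%.

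Depth differed between libraries, and it moved the detection counts. Mature miRNA reads, with each name counted once, came to 211140 in WT, 175048 in ctrl, 238172 in ALG-1/OE and 536907 in glp-1(e2144). Drawn down to the depth of ctrl, the expected number of late names was 41 in WT, 39.5 in ALG-1/OE and 29.5 in glp-1(e2144), against the 36 counted in ctrl. The deepest library, glp-1(e2144), thus went from the most late names to the fewest. The early names were also fewest in glp-1(e2144) at that depth, at 162, against 179 in WT, 179 in ALG-1/OE and 174 in ctrl. Among the late names of glp-1(e2144) the fall at equal depth was uneven, with 12.1 of 30 names expected from miR-1018 to miR-1834 but 4.92 of 54 from miR-8186 up. In that last run WT gave 10.7 and ALG-1/OE 8.76, and ctrl held 6, near the glp-1(e2144) value. Of the 11 names counted there in glp-1(e2144), 2 had at least 3 reads. At these depths a name without reads could stand at up to 14.2 reads per 1000000 mature miRNA reads (RPM) in WT, 17.1 in ctrl, 12.6 in ALG-1/OE and 5.59 in glp-1(e2144), the levels that 3 reads represent. Absence below those levels was not detectable.

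In reads, the late miRNAs were a trace of the total. They took 519 reads in WT, or 0.246% of mature reads (95% Clopper-Pearson interval 0.225 to 0.268%). In ctrl they took 520 reads, 0.297% (0.272 to 0.324%), in ALG-1/OE 846 reads, 0.355% (0.332 to 0.380%), and in glp-1(e2144) 1538 reads, 0.286% (0.272 to 0.301%). The share was highest in ALG-1/OE, where the interval cleared those of the other libraries. The 16 names with at least 10 reads in a library made up 93.5% of all late reads.

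A large part of those reads came from 1 locus, mir-5592, where the reads of 1 position were counted under both arm names. mir-5592-1 and mir-5592-2 are annotated on opposite strands of chromosome X, at 13759245 to 13759308 on the minus strand and 13759247 to 13759310 on the plus strand, in an intron of aakb-1, a gene for a beta subunit of the AMP-activated kinase. The 5p arm of each hairpin lies over the 3p arm of the other, and the overlapping rows held identical counts in every library. At the right-hand position these were 120 reads in WT, 117 in ctrl, 174 in ALG-1/OE and 468 in glp-1(e2144), and at the left-hand position 117, 118, 162 and 456. Each name was taken from its row with the most reads. The right-hand reads therefore entered the totals above under both names, and the left-hand reads did not enter them. The positions were near balance, with 50.6% of reads on the right in WT (44.1 to 57.2%) and 51.8% in ALG-1/OE (46.3 to 57.2%). Strand and arm therefore could not be told apart from these counts. Below, miR-5592-5p and miR-5592-3p are given as 1 measurement, that of the right-hand position. With both names left out, the late share was 0.132% in WT (0.117 to 0.149%), 0.163% in ctrl (0.145 to 0.183%), 0.209% in ALG-1/OE (0.191 to 0.228%) and 0.112% in glp-1(e2144) (0.103 to 0.121%). The order of WT and glp-1(e2144) turned round but their intervals now overlapped, while ALG-1/OE stayed above ctrl. A single name, miR-4813-5p, held 39 of the 279 reads left in WT and 2 of the 602 in glp-1(e2144).

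Among the other names, 5 had at least 10 reads in every library, and they came from the runs from miR-1018 to miR-1834 and from miR-2207 to miR-2221. miR-1820-5p, from a hairpin between genes on chromosome IV, was the most abundant, with 62 reads in WT, 65 in ctrl, 76 in ALG-1/OE and 208 in glp-1(e2144). That is 294 (225 to 376), 371 (287 to 473), 319 (251 to 399) and 387 (337 to 444) RPM, and all 4 intervals overlapped. miR-1022-5p, from a hairpin between genes on X, had 24, 41, 81 and 56 reads in the same order. Its levels of 114 RPM in WT and 104 in glp-1(e2144) lay below the 234 of ctrl and the 340 of ALG-1/OE. The pair kept at 20 °C was thus the higher, with intervals that just met between WT (72.8 to 169) and ctrl (168 to 318), and temperature and strain cannot be told apart here. miR-1830-3p, from an intron of the purine synthesis gene paic-1 on II, had 21, 36, 40 and 66 reads, or 99.5, 206, 168 and 123 RPM. miR-2209a-3p, from a hairpin group on IV, had 21, 15, 44 and 33 reads, or 99.5, 85.7, 185 and 61.5 RPM, with ALG-1/OE the high library. miR-1018, a mirtron on X, had 18, 11, 32 and 27 reads, or 85.3, 62.8, 134 and 50.3 RPM.

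The shallower leading names of each run rested on few reads. miR-5551-5p, between genes on IV, had 6 reads in WT, 7 in ctrl, 16 in ALG-1/OE and 12 in glp-1(e2144). From miR-2207 to miR-2221, miR-2210-3p had 8, 1, 6 and 7 reads in that order, miR-2208b-5p had 1, 0, 0 and 3, and miR-2220-3p had 1, 1, 0 and 0. The hairpin of miR-2210-3p overlaps the annotated 3' UTR of ZK593.2. From miR-8186 up, miR-8196a-3p had 3, 3, 10 and 5 reads and miR-8196b-3p, opposite an intron of the peroxisome gene prx-1, had 0, 1, 7 and 1. miR-8210-5p had 2, 1, 2 and 6, miR-8192-3p had 3, 0, 2 and 1, and miR-8193-5p had 0, 1, 3 and 1. None of these shallow names passed the adjusted test in any of the 3 comparisons.

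**Figure D2:**
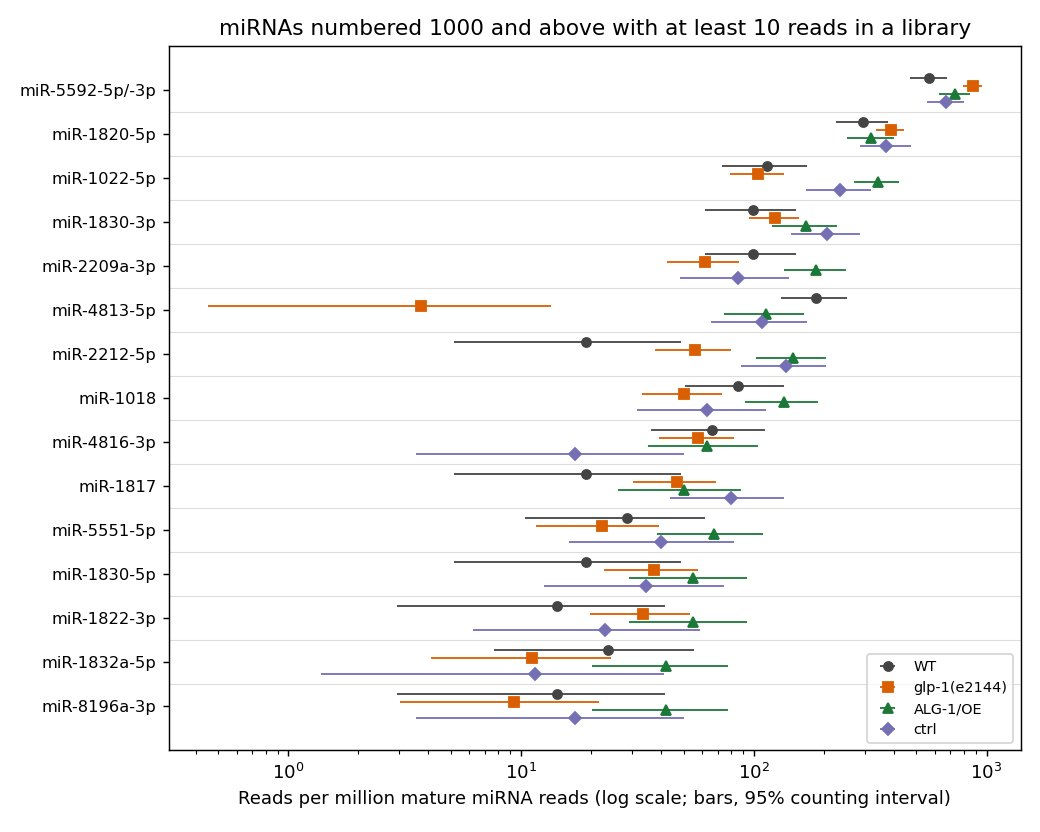
The x axis gives reads per 1000000 mature miRNA reads on a log scale for the late names with at least 10 reads in a library, listed on the y axis by their summed level, with miR-5592 drawn once. Points are the 4 libraries and bars are 95% Clopper-Pearson intervals for counting error. miR-4813-5p in glp-1(e2144), at 3.73 RPM, stands apart from the 109 to 185 RPM of the other 3 libraries.

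Germline loss was examined by setting glp-1(e2144) against WT, both at 25 °C. All levels are relative to the miRNA total of a library, so a shift shared by all miRNAs does not show. Most deep late names differed little here, and 1 fell steeply. miR-4813-5p had 39 reads in WT and 2 in glp-1(e2144), against 19 in ctrl and 27 in ALG-1/OE. The level of 3.73 RPM in glp-1(e2144) was below that of every other library, and the log2 fold change was -5.63 (-8.73 to -3.68; exact binomial test, Benjamini-Hochberg adjusted p = 1.33e-18). This was the tenth steepest fall among the 199 names with reads in both libraries, and the 9 names ahead of it were all early miRNAs. Its hairpin lies on chromosome III at 4571640 to 4571716. There it overlaps, on the same strand, the annotated 3' UTR of idhg-1, which encodes a subunit of mitochondrial isocitrate dehydrogenase. Its partner arm miR-4813-3p, with 2, 6, 4 and 2 reads in WT, ctrl, ALG-1/OE and glp-1(e2144), was too shallow to compare.

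The only late reads higher by the adjusted test in this comparison were those of mir-5592, which stayed within the cut-off. At its right-hand position, the measurement used here, 120 reads in WT became 468 in glp-1(e2144). That is 568 and 872 RPM, a log2 fold change of 0.62 (0.32 to 0.92, adjusted p = 6.1e-05 by the exact test). The left-hand position held 117 and 456 reads in the same libraries, which are not part of these values. miR-4937 had 4 reads in WT, 4 in ctrl, 9 in ALG-1/OE and none in glp-1(e2144). It was lower in glp-1(e2144) by the exact test (adjusted p = 0.0185), with the 95% interval of the log2 fold change reaching up to -0.75, and it was named after its values were seen. Larger upward differences did not pass. miR-2212-5p had 4 and 30 reads, a log2 fold change of 1.56 (0.06 to 3.53, adjusted p = 0.0881), and miR-1817 had 4 and 25 reads, 1.30 (-0.24 to 3.28, adjusted p = 0.203), both by the exact test. miR-1018, miR-2209a-3p, miR-5551-5p and miR-4816-3p lay below 0, at -0.76, -0.69, -0.35 and -0.20, with intervals that included 0.

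By counts, 28 late names had reads in both libraries of this pair. Past the cut-off of 1 on the log2 scale, which is 2-fold, 3 were higher and 9 lower. Over all 199 names measured 9.55% were higher and 27.1% lower, so the late names stood close to the background, at a median log2 fold change of -0.35 against -0.01 for all. Of the 28, 11 lay above 0, where 49.7% of all names did. Shallow names set that balance. Of the 9 below the cut-off, 8 had fewer than 10 reads in either library, among them 4 of the 7 measured from miR-8186 up. With at least 10 reads in the higher library, 14 late names remained, 3 higher and 1 lower, at a median of 0.35. Over all 162 names at that depth 18 were higher and 35 lower, at a median of 0.10. The adjusted p was under 0.05 for 4 of the 63 late names tested, 2 higher, which are the arms of mir-5592, and 2 lower. The background of that call was 17.9% of 262 names higher and 19.5% lower, above the late counts in each direction. The late names were shallower. Reads in both libraries and at least 10 in the higher were held by 14 of the 63, against 162 of all 262. Names with few reads can rarely pass the exact test, so the lower rate was not separated from depth. The same applies to the adjusted counts of the comparisons below.

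ALG-1 overexpression was examined by setting ALG-1/OE against ctrl, both at 20 °C. The late names lay mostly above 0 here, with 1 that passed the test. miR-2209a-3p went from 15 reads in ctrl to 44 in ALG-1/OE, or from 85.7 to 185 RPM, a log2 fold change of 1.11 (0.24 to 2.06, adjusted p = 0.0384 by the exact binomial test). It belongs to a group of late hairpins on IV, with mir-2208a, mir-2208b and mir-2209c within 10 kb on the same strand, but mir-2208b had 5 reads in all libraries together and the other 2 had none. Under TMM scaling the log2 fold change of miR-2209a-3p was 0.94, and with TMM or median-of-ratios factors 0 late names had an adjusted p under 0.05.

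Several other names were higher in ALG-1/OE without passing. miR-1018 had 32 against 11 reads, 1.10 on the log2 scale (0.07 to 2.23, adjusted p = 0.119), and miR-4816-3p, also a mirtron, had 15 against 3, 1.88 (0.06 to 4.31, adjusted p = 0.121), both by the exact test. miR-1832a-5p, from an intron of the splicing factor gene rsp-8, had 10 against 2 reads, 1.88 (-0.35 to 5.11). miR-8196a-3p, the deepest name from miR-8186 up, had 10 against 3 reads, 1.29 (-0.66 to 3.79). The other 3 libraries held 3 to 5 reads of it. miR-1820-5p at -0.22, miR-1830-3p at -0.29 and miR-1817 at -0.67 lay below 0 with intervals that included 0.

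Past the cut-off, 10 of 28 late names were higher in ALG-1/OE and 3 lower. Over the 204 names measured 11.3% were higher and 6.86% lower. The median of the late names was 0.61 and that of all names 0.14, and 21 of the 28 lay above 0, where 59.3% of all names did. With at least 10 reads in the higher library, 6 of 16 late names were past the cut-off upward, where 14 of all 154 names were. When each library had to hold 10 reads, the counts were 2 of 10 and 5 of 131, and the late median was 0.11. TMM factors put 6 of the 28 late names and 14 of the 204 above the cut-off. By the adjusted p, 1 of the 51 late names tested was higher and 0 lower, with 3 under 0.05 before adjustment, and the background was 11.9% of 243 names higher and 9.88% lower.

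**Figure D3:**
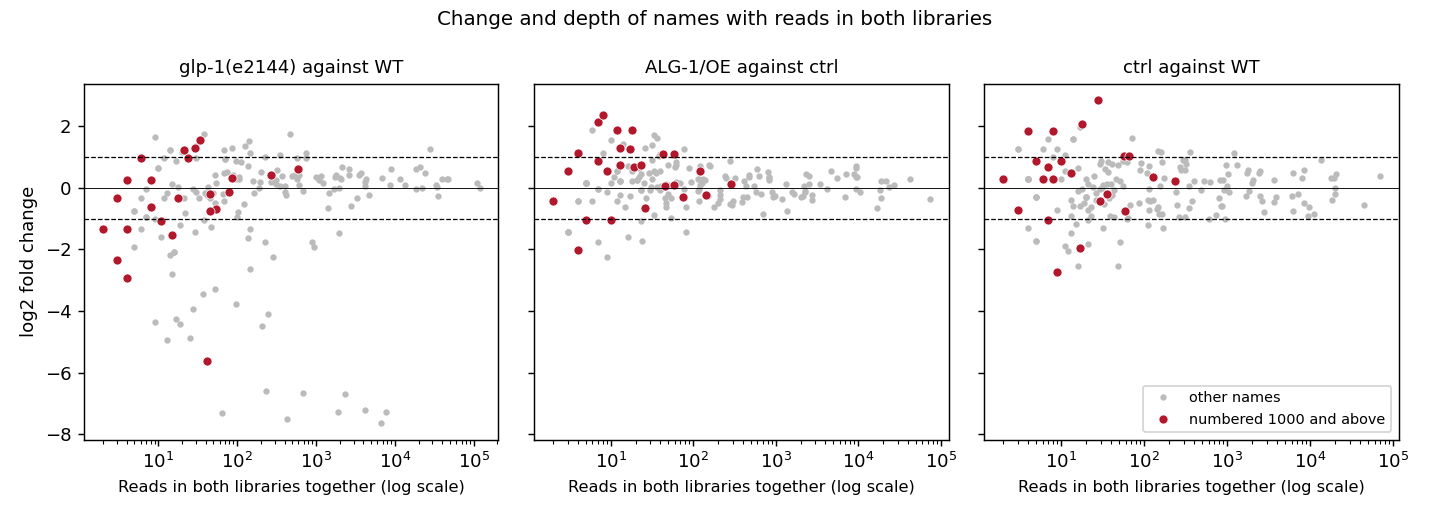
The y axis gives the log2 fold change and the x axis, on a log scale, the reads of a name in both libraries together, with 1 panel per comparison. Red points are late names, grey points all other names, and dashed lines mark the cut-off of 1. Most late names sit among the shallow points at the left, and in glp-1(e2144) against WT only miR-4813-5p, at -5.63, joins the early names that fell steeply.

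miR-1822-3p was the only late name with at least 10 reads in a library that was past the cut-off in the same direction in both study comparisons. It comes from an intron of ZK84.2 on II and had 3 reads in WT, 4 in ctrl, 13 in ALG-1/OE and 18 in glp-1(e2144). The log2 fold changes were 1.26 (-0.44 to 3.33) in ALG-1/OE and 1.24 (-0.54 to 3.64) in glp-1(e2144), with adjusted p = 0.359 and 0.414 by the exact test, so neither passed. Both controls lay at the low end, with 14.2 RPM in WT and 22.9 in ctrl against 54.6 in ALG-1/OE and 33.5 in glp-1(e2144), and every interval overlapped its neighbour. miR-1830-5p, the minor arm of mir-1830, had 4, 6, 13 and 20 reads in that order, with log2 fold changes of 0.98 in glp-1(e2144) against WT and 0.67 in ALG-1/OE against ctrl.

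The controls differed from each other as well, in genotype, transgene and temperature at once, and these cannot be told apart. This comparison shares its libraries with the 2 above. In ctrl against WT, 4 of the 56 late names tested were higher by the adjusted p and 0 lower, with 6 under 0.05 before adjustment, against a background of 15.3% of 248 names higher and 15.7% lower. miR-2212-5p, from a hairpin next to mir-1819 on X, had 24 reads in ctrl and 4 in WT, 2.86 on the log2 scale (1.31 to 4.84, adjusted p = 6.56e-05, exact test). miR-1817 had 14 and 4 reads, 2.08 (0.41 to 4.14, adjusted p = 0.0282, exact test). Both were low in WT and higher in each of the other 3 libraries, miR-2212-5p at 18.9 RPM in WT against 137 in ctrl, 147 in ALG-1/OE and 55.9 in glp-1(e2144). miR-1830-3p at 1.05 and miR-1022-5p at 1.04 were also higher, with adjusted p = 0.0282 and 0.0221 by the exact test. With median-of-ratios factors the count of late names higher by the adjusted p was 2. miR-4816-3p went the other way, with 3 reads in ctrl and 14 in WT, -1.95 (-4.39 to -0.11, adjusted p = 0.0824, exact test), so ctrl was its low library.

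Past the cut-off, 6 of the 24 late names measured in ctrl against WT were higher and 3 lower, where 10.6% and 11.1% of all 198 names were. The median was 0.27 and that of all names 0.04. These counts between the controls are of the same order as those in the study comparisons.

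**Figure D4:**
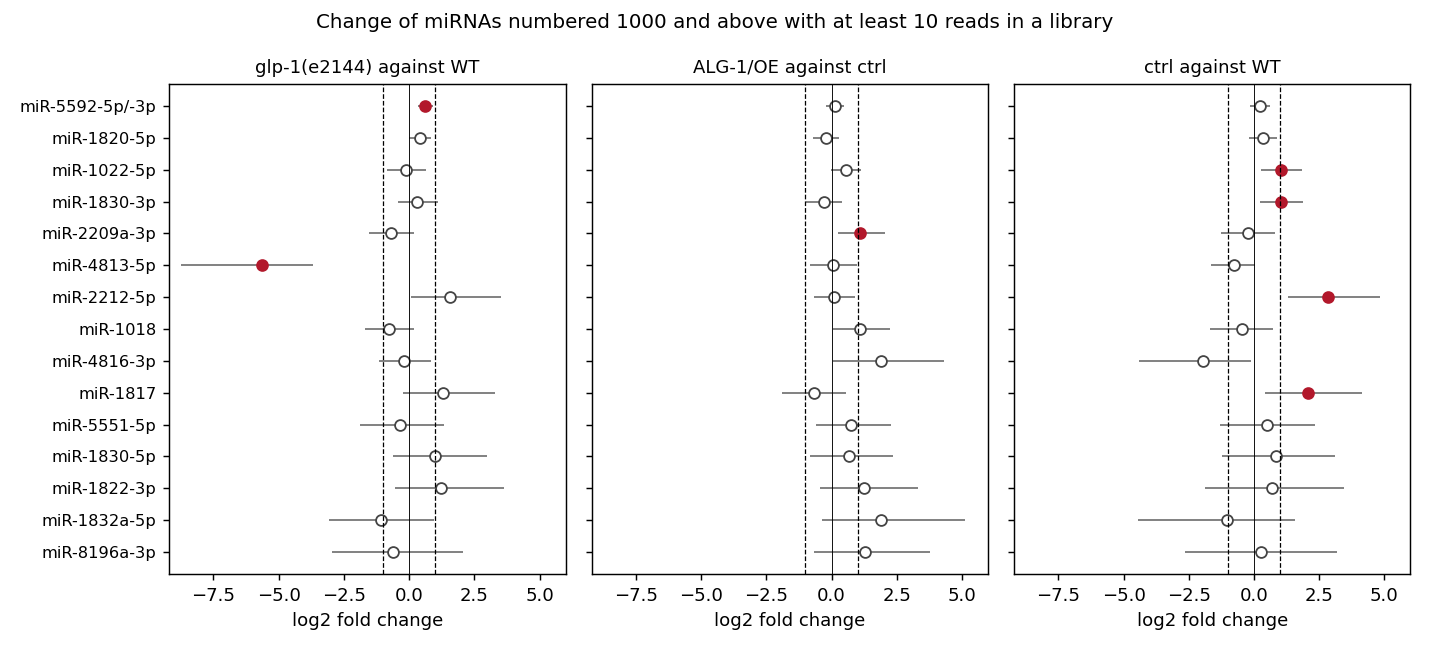
The x axis gives the log2 fold change in each comparison, 1 panel each, for the late names with at least 10 reads in a library on the y axis. Bars are 95% Clopper-Pearson intervals for counting error, dashed lines the cut-off of 1, and red points an adjusted p under 0.05. The red points are mir-5592 and miR-4813-5p in the first panel, miR-2209a-3p in the second, and miR-1022-5p, miR-1830-3p, miR-2212-5p and miR-1817 in the third.

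Where reads were deep enough, the late hairpins gave reads mostly from 1 arm. Leaving out mir-5592, 45 hairpins with both arms annotated held a read on an arm over the 4 libraries, and 27 of them had reads on 1 arm only. Hairpins with 1 annotated arm, such as mir-1018 and mir-1817, are not among them. The arms of early hairpins were not counted, so no background stands beside these numbers. A late hairpin with 1 read in all, such as mir-8204, can only show 1 arm, so the 27 include hairpins whose place was fixed by depth. Of the 17 late hairpins with at least 10 reads, 13 had 90% or more on 1 arm, with the 5p arm the major one in 8 and the 3p arm in 9. mir-1820 gave 411 reads of its 5p arm and 1 of its 3p arm, mir-1022 gave 202 and 0, and mir-2212 gave 93 and 0, while mir-2209a gave 0 and 113. The less lopsided were mir-1830, with 79.1% of 206 reads on its 3p arm (72.9 to 84.5%), mir-4816, with 82.9% of 76 on 3p (72.5 to 90.6%), mir-4813, with 86.1% of 101 on 5p (77.8 to 92.2%), and mir-8196b, with 69.2% of 13 on 3p (38.6 to 90.9%). For mir-4813 the major arm held 39 of 41 reads in WT, 19 of 25 in ctrl and 27 of 31 in ALG-1/OE, and 2 of 4 in glp-1(e2144), where 4 reads are too few to compare the arms.

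Position was a property the choice by number did not use, and it is given here as a description with no test. More of the late than of the early hairpins lay in introns. Against the WBcel235 annotation, in which all 117 hairpins have the coordinates given in the files, 51 late hairpins (43.6%) lay in an intron on the same strand, against 25 of 129 early ones (19.4%). Between genes lay 48 late hairpins (41%) and 81 early ones (62.8%). Another hairpin on the same strand within 10 kb was found for 26 late (22.2%) and 49 early hairpins (38%). On X lay 23 late (19.7%) and 43 early hairpins (33.3%). None overlapped an annotated snoRNA, tRNA, rRNA or snRNA.

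The mirtron arrangement was found almost wholly among the late hairpins. In 20 of the 117 late hairpins (17.1%) the hairpin filled an annotated intron exactly, from splice site to splice site, against 1 of 129 early hairpins (0.775%). These introns were 52 to 70 bases long. 16 of the 20 belong to the run from miR-4805 to miR-5595, 3 to the run starting at miR-1018 and 1 to that starting at miR-2207, and the run starting at miR-8186 has none. Reads were found on 7 of the 20. mir-4816, in T09B4.2 on I, held 76 reads, mir-1020, in T16G12.1 on III, held 12, and mir-1019, in the kinase gene dyf-5, held 0.

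Of these introns, 11 belong to a single spliced non-coding RNA on X, Y59E1B.1. In their order along the transcript the hairpins are mir-4807, mir-4808, mir-4809, mir-2220, mir-4810b, mir-4810a, mir-1018, mir-4925, mir-4923b, mir-4923a and mir-4921, so 3 of the number runs meet in 1 host. Of 95 reads on the array, 88 were on mir-1018. None of the others had more than 3, and 6 had none. Hairpins spliced from 1 transcript thus ranged from 0 to 88 reads.

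**Figure D5:**
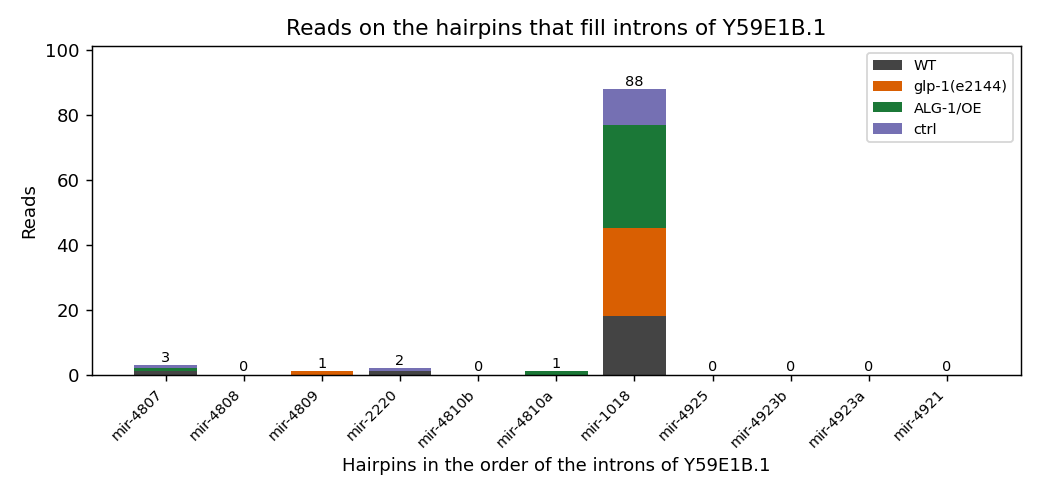
The y axis gives reads on each hairpin, stacked by library, and the x axis lists the 11 hairpins that fill introns of Y59E1B.1 in transcript order. The number above each bar is its total. mir-1018 holds 88 of the 95 reads.

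The names on intron-filling hairpins, grouped after their position was looked up, held 37 reads in WT, 17 in ctrl, 57 in ALG-1/OE and 72 in glp-1(e2144). These are 175 (123 to 242), 97.1 (56.6 to 155), 239 (181 to 310) and 134 (105 to 169) RPM. ALG-1/OE stood highest and ctrl lowest, and their intervals did not overlap. Most of these reads were those of miR-1018 and mir-4816 described above.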

How the data were processed

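The files hold 1 table per library with counts of reads per mature miRNA or hairpin, as deposited. The authors filtered reads with Fastx-ToolKit (at least 18 bases) and aligned them with Bowtie2 to ce10. How reads matching several places or either strand were counted is not given in the sources used here. The labels name a SOLiD library kit and the study's methods an Illumina instrument. The study scaled to all reads of a sample, totals not used here, so a change shared by all miRNAs is not seen. Each name was taken from its row with the most reads and divided by the library's mature total. Fold changes had no pseudocount and used names with reads in both libraries. Exact two-sided binomial tests on the reads were adjusted by Benjamini-Hochberg over all names with a read in the pair, and tested on simulated data. They compare libraries, not conditions. Equal-depth counts are hypergeometric expectations. A count of 0 was taken to allow 3 reads. Named were, in each run, the 5 highest by summed RPM, in each comparison the 5 largest rises and falls with at least 10 reads in the higher library, names past the cut-off alike in both study comparisons, names whose counts equal those of an overlapping row, and hairpins filling an intron (within 5 bases). Members and lists were chosen with earlier results of these data known. Sequences were not analysed here. Hairpin positions were read against Ensembl release 115. Python 3.11.15, scipy 1.17.1, edgeR 4.0.16 (TMM) and DESeq2 1.42.0 (median of ratios, size factors only) were used.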

Additional observations from a re-analysis of the deposited data

Results flagged for a closer look

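mir-1828, in an intron of pash-1, which encodes the RNA-binding partner of Drosha, has 1 annotated mature arm, and reads on the rest of its hairpin entered no comparison. Outside that arm the hairpin held 2 reads in ctrl and 11 in ALG-1/OE, and 1 in WT and 2 in glp-1(e2144). The 11 reads are above the 3 that a count of 0 allows. Scaled to the mature totals the difference between ALG-1/OE and ctrl was 2.02 on the log2 scale (95% Clopper-Pearson interval -0.18 to 5.23), with an unadjusted p = 0.0533 in the exact binomial test, so it did not pass the threshold of 0.05.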

How the results depend on the processing

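No paired analysis was possible because each strain has 1 library, and no library could be left out. The counts of late names past the cut-off, higher and lower, were 3 and 9 in glp-1(e2144) against WT, 10 and 3 in ALG-1/OE against ctrl, and 6 and 3 in ctrl against WT, and they moved with most choices. Without scaling, glp-1(e2144) gave 13 higher and 2 lower, with 10 higher and 1 lower by the adjusted p, and ALG-1/OE gave 1 lower. The median over all names went from -0.01 to 1.33 and from 0.14 to 0.58. A change of scaling moves every log2 fold change alike, so the late median had to stay 0.33 lower and 0.47 higher than that of all names. With at least 10 reads in the higher library it was 0.25 higher in glp-1(e2144) and 0.48 higher in ALG-1/OE. With at least 10 reads in both it was 0.08 lower and 0.06 higher. Without scaling, miR-1832a-5p turned from -1.08 to 0.26 in glp-1(e2144). TMM factors gave 6 higher in ALG-1/OE and 5 higher in glp-1(e2144). Leaving the miR-35 to miR-42 group out of the total gave 1 lower in ALG-1/OE. A pseudocount of 0.5, which lets in names at 0 in 1 library, gave 25 lower in glp-1(e2144), 23 higher and 9 lower in ALG-1/OE, and 18 and 22 in ctrl. At least 10 reads in the higher library left 6 and 0 in ALG-1/OE, 1 lower in glp-1(e2144), and 1 lower in ctrl. At least 10 reads in both left 0 and 0, 2 and 0, and 2 and 0. With 1.5-fold as the cut-off there were 7 higher in glp-1(e2144) and 5 lower in ctrl. Adding an adjusted p under 0.05 left 0 and 1, 1 and 0, and 0 lower in ctrl.

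Detection at 3 reads was 21 names in WT, 20 in ctrl, 27 in ALG-1/OE and 21 in glp-1(e2144), and at 10 reads 9, 10, 16 and 13. At equal depth glp-1(e2144) gave 29.5. The share of late reads in WT, ctrl, ALG-1/OE and glp-1(e2144) was 0.356, 0.431, 0.491 and 0.456% with the rows of a name summed, 0.189, 0.230, 0.282 and 0.199% without the most abundant name and 0.189, 0.230, 0.282 and 0.199% with mir-5592 counted once. Counted once, mir-5592 entered with its right-hand position only, so its left-hand reads were left out. Without mir-5592 the share was 0.132, 0.163, 0.209 and 0.112%. With the miR-35 to miR-42 group left out of the total it was 0.277% in WT and 0.389% in ALG-1/OE. The 2 alternatives on mir-5592 were chosen after seeing the data. Of the hairpins with both arms annotated and a read, mir-5592 left out, all reads were on 1 arm in 24 of 31 in WT. The counts were 20 of 24 in ctrl, 19 of 27 in ALG-1/OE and 23 of 32 in glp-1(e2144). With at least 10 reads on the hairpin they were 3 of 6, 4 of 6, 7 of 11 and 4 of 8 in that order. For the named miRNAs, 449 of their values under an alternative stayed on the same side of the cut-off. Another 14 newly passed it, 13 no longer did, and 1 that had been past it changed sign. A change of sign within the cut-off was not counted. The 449 include 41 values with at least 10 reads in the higher library and 26 with 10 in both. Those settings drop names but leave a fold change as it was, so these values could not move. Where the cause of a move is not the setting itself, the cause was not tested.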
